A study of Mus musculus with 24 samples.

Results

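The animals described here are the 8 mouse pups whose hippocampal RNA was measured on both an mRNA array and a miR array, chosen because the same animal number stands in the titles of both assays. They were 8 of 16 animals in the series. Another 7 animals had an mRNA array only and 1 had a miR array only. All were labelled as male C57BL/6 pups at postnatal day 9. Untreated controls (Con) were animals 16, 17 and 18. MS2 animals 3 and 4 received morphine at 2 mg/kg, and MS5 animals 9, 12 and 14 received 5 mg/kg. Both morphine groups also underwent the stress protocol of the study, maternal separation with brief gas exposures, so that a contrast with Con spans drug and stress together. The question was whether miRs followed the genes they lie in, and the mRNAs they may target, from animal to animal. No contrast between groups is reported.

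MicroRNAs (miRs) are RNAs of about the length of a short primer that pair with target mRNAs, chiefly through the seed near their 5′ end, and lower their stability or translation. Many miR genes lie inside a longer gene, the host, and can be cut from its transcript, so host and miR may share a promoter. In brain tissue, miR-204 is known from choroid plexus epithelium, where its host Trpm3 encodes a cation channel, and miR-448 lies within Htr2c, the serotonin 2C receptor. The miR-34b, miR-34c and miR-449 family is known from cells with motile cilia.

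The mature sequences on which the comparisons turned are shown from RefSeq (GRCm38.p6), 5′ to 3′, with the seed (bases 2 to 8) in capitals. Where the array name gives no arm, the arm shown is the one that name stood for in older nomenclature. The choroid plexus miRs are shown with miR-153, whose seed matched that of miR-448 at 6 of 7 bases.
miR-204-5p, chr19:22750610-22750631, plus strand, in Trpm3: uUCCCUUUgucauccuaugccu
miR-448-3p, chrX:147158281-147158302, plus strand, in Htr2c: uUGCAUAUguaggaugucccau
miR-153-3p, chr12:117250860-117250881, plus strand, in Ptprn2: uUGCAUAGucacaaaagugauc

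The miRs of ciliated cells formed pairs with identical seeds, at 7 of 7 bases, for miR-34b-5p with miR-449a-5p and for miR-34b-3p with miR-34c-3p (named miR-34c-star on the array).
miR-34b-5p, chr9:51103610-51103632, minus strand: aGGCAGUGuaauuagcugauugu
miR-449a-5p, chr13:113037549-113037570, plus strand: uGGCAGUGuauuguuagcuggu
miR-34b-3p, chr9:51103574-51103595, minus strand: aAUCACUAacuccacugccauc
miR-34c-3p, chr9:51103044-51103065, minus strand: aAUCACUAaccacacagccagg

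From the host pairs with an unadjusted p under 0.05, the 3 miRs of Mirg are shown with 1 further miR that rose with its host (miR-139-5p) and 1 that fell as its host rose (miR-532-3p). The first 3 below lie in Mirg, a maternally expressed non-coding RNA of the imprinted Dlk1-Dio3 region.
miR-410-3p, chr12:109743764-109743784, plus strand: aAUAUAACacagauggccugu
miR-412-3p, chr12:109743340-109743359, plus strand: uUCACCUGguccacuagccg
miR-369-5p, chr12:109743431-109743452, plus strand: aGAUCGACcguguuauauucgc
miR-139-5p, chr7:101475382-101475403, plus strand, in Pde2a: uCUACAGUgcacgugucuccag
miR-532-3p, chrX:7248419-7248440, minus strand, in Clcn5: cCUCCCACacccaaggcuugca

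Features of single arrays that touched the later results are given first. Levels are the deposited log2 values throughout, and each assay was normalised on its own. The MS5 9 mRNA array went against its male label. Xist, the RNA of the inactive X chromosome, read 11.34 there and at most 6.02 on the other 7 mRNA arrays. The Y-linked gene Ddx3y read 6.24 on that array and 11.09 to 11.45 on the others, and Eif2s3y, also Y-linked, read 6.77 against 12.11 to 12.64.

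The assays also differed in which MS5 animals were low for choroid plexus and ciliated-cell transcripts. On the miR arrays, miR-204 read 6.99, 7.06 and 7.53 in Con 16, 17 and 18, 8.30 and 6.84 in MS2 3 and 4, and 7.31, 5.23 and 5.37 in MS5 9, 12 and 14. For miR-448 the same order gave 7.16, 6.76, 7.61, 7.52, 6.92, 7.25, 4.81 and 4.71. MS5 12 and 14 were thus the low animals for both miRs. On the mRNA arrays, Trpm3 read 10.71, 10.52, 9.96, 10.45, 9.74, 7.56, 9.86 and 7.09 in that order. Ttr, the thyroxine carrier made in bulk by choroid plexus, read 18.15, 18.13, 17.88, 18.05, 17.79, 15.93, 17.92 and 12.84. Here MS5 9 and 14 were low and MS5 12 lay with the remaining animals. The mean of the 16 choroid plexus markers, all well above background on the 8 arrays, was 9.94 in MS5 9 and 9.07 in MS5 14, and between 11.72 and 12.42 in the other 6. In the 7 animals with an mRNA array only it lay between 11.22 and 12.10.

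Not every transcript divided the MS5 animals in this way. Penk, which encodes the enkephalin precursor, read 11.66, 11.96, 11.53, 11.66, 12.68, 11.92, 14.40 and 14.54 in the same order, so that MS5 12 and 14 were the high pair, as they were the low pair for miR-204 and miR-448. Whether any array carries the number of another animal was not tested. Results are given with all 8 animals and, where these numbers moved them, also without MS5 9 and MS5 12 or with the mRNA arrays of those 2 animals exchanged. The exchange was chosen from these same values, so it describes how far a result depends on that pair of numbers and supports no pairing.

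**Figure D1:**
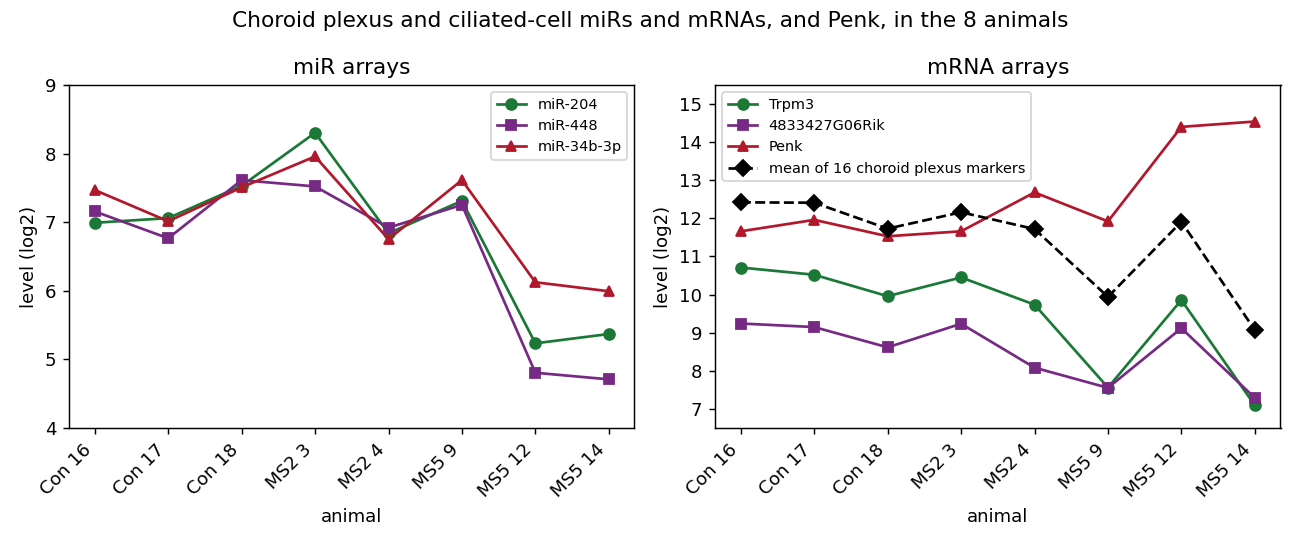
Levels (log2, vertical axes) in each of the 8 animals (horizontal axes), from the miR arrays on the left and the mRNA arrays on the right; each line joins the values of 1 transcript and the dashed line is the mean of 16 choroid plexus markers. The miRs were low in MS5 12 and 14, Trpm3 and 4833427G06Rik were low in MS5 9 and 14, and Penk was high in MS5 12 and 14.

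MS2 4 stood apart on the mRNA arrays and had the highest levels of some miRs. Its mRNA array read 12.74 for Tcfap2b, 11.78 for Gata3, 12.36 for Slc6a3 (the dopamine transporter) and 12.31 for Hcrt (the orexin precursor). The other 7 arrays read at most 6.97, 6.98, 8.15 and 8.18 for these genes, which are known from midbrain, thalamus or hypothalamus. Neurod6, a transcription factor of pyramidal neurons, read 10.02 in MS2 4 and 13.39 to 13.89 in the rest. On the miR arrays MS2 4 had the highest miR-383 (11.05, against 8.03 to 10.07) and miR-344 (10.65, against 8.44 to 9.93). The mean of the 6 hypothalamus and thalamus markers was 11.14 in MS2 4, 9.73 in MS5 12 and 10.10 in MS5 14, and 8.03 to 8.45 in the other 5 animals. In MS5 12 and 14 it was raised by Avp (12.47 and 10.79), Oxt (9.89 and 11.62) and Trh (9.16 and 11.08). Hcrt read 7.99 and 8.08 there, Tcf7l2 8.52 and 8.66, and Lhx9 10.34 in both. In MS2 4 these 3 genes read 12.31, 9.79 and 13.08. A further probeset of Tcf7l2, outside the marker list, read 12.6 in MS2 4 and 8.56 and 8.34 in MS5 12 and 14. It read 7.36 to 8.34 in the other 5 animals. In bulk tissue, fewer cells of a type and less RNA per cell cannot be told apart.

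**Figure D2:**
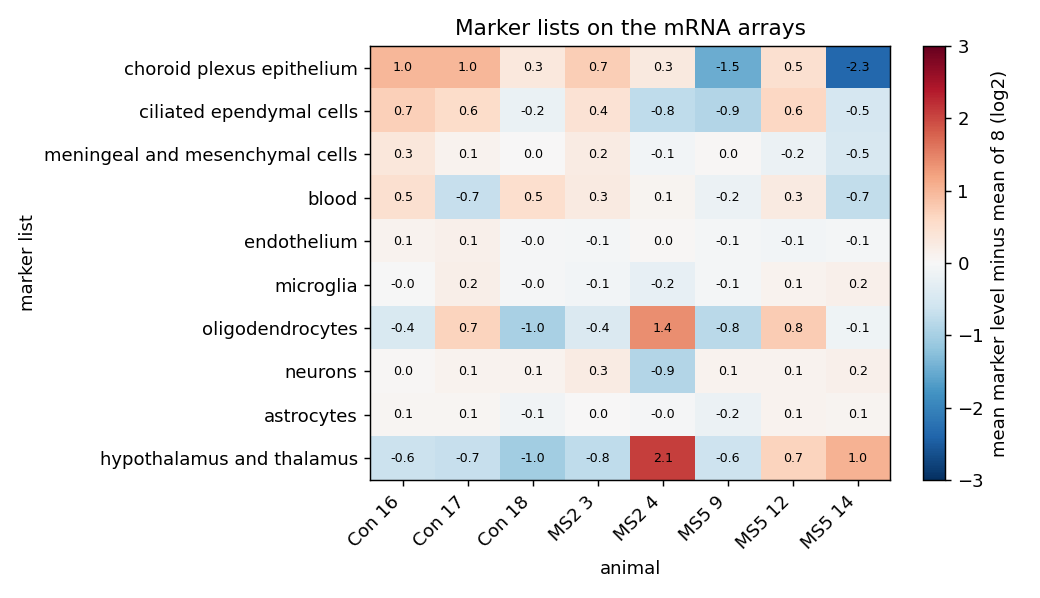
Mean level of each marker list on the mRNA arrays, minus its mean over the 8 animals (log2; red above, blue below), with lists in rows and animals in columns. Choroid plexus markers were lowest in MS5 14 and MS5 9, and hypothalamus and thalamus markers were highest in MS2 4.

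In all, 119 host pairs could be tested, made of 115 miRs and 77 host names. A pair was kept when the miR had a mean of at least 6 (log2) and the host probeset was well above background on all 8 mRNA arrays. More pairs ran together than apart. Pearson r over the 8 animals was positive in 84 of 119 pairs, with a median of 0.23. The same miRs set against the hosts of other miRs gave a median of -0.0024 over 8736 pairs, of which 49.7% were positive. No host pair passed an adjusted p of 0.05 (0 of 119, 0%, exact permutation test with Benjamini-Hochberg adjustment, smallest adjusted p 0.215). At an unadjusted exact p under 0.05 there were 15 pairs (12.6%), against 7.99% among the pairs with other hosts, and 11 of the 15 were positive.

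**Figure D3:**
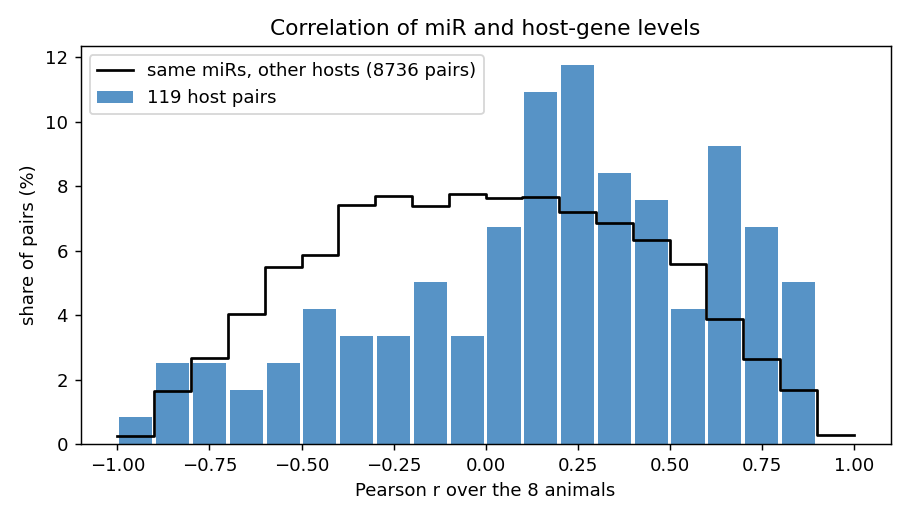
Share of pairs (%, vertical axis) by Pearson r between miR and host-gene level over the 8 animals (horizontal axis); bars are the 119 host pairs and the black line is the same miRs against the hosts of other miRs. The bars exceed the line toward the right, with 11.8% of host pairs and 4.62% of the others above 0.7.

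The count depended on the animals more than on the scale. It was 12 with slide means removed and 14 with the scanner's processed signal. It was 10 without MS2 4, 9 without MS5 9 and MS5 12, and 15 with those 2 mRNA arrays exchanged, the median r being 0.14, 0.28 and 0.24. Within groups, where only 72 pairings exist and the smallest possible p is 0.0139, 5 pairs were under 0.05 and 69 of 119 were positive. Of the 15 pairs themselves, 11 kept an unadjusted p under 0.05 with the processed signal and 10 with slide means removed. Those lost with the processed signal were the pairs of miR-412, miR-369-5p, miR-139-5p and miR-676. The number kept was 6 without MS2 4, 11 or 12 without any other single animal, 7 without MS5 9 and MS5 12, and 8 with the exchange. Within groups 1 of the 15 was under 0.05, that of miR-125b-star. Without the 2 animals farthest from the median of each miR it was 2 of the 15, those of miR-410 and miR-412. The 7 pairs over 0.05 with the exchange were those of miR-9, miR-9-star, miR-125a-5p, miR-99b-star, miR-126-3p, miR-339-5p and miR-676. The pairs described next, other than those of miR-204, miR-448, miR-34c, miR-455, miR-574-3p, miR-126 and miR-153, were chosen after their values were seen.

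Mirg gave the strongest run of positive pairs. Its level in Con 16, 17 and 18, MS2 3 and 4 and MS5 9, 12 and 14 was 12.81, 13.01, 12.83, 12.90, 13.44, 13.02, 13.01 and 13.40. In the same order miR-410 read 7.54, 7.57, 7.22, 7.76, 8.42, 7.78, 7.96 and 8.05, and miR-412 read 6.04, 6.11, 5.64, 6.11, 6.53, 6.22, 6.35 and 6.38. MS2 4 and MS5 14 were the highest animals for all 3 transcripts. For miR-410, r was 0.86 (exact permutation p = 0.00181, adjusted p = 0.215) and rho was 0.93 (exact p = 0.00223). Without the 2 animals farthest from the miR-410 median r was 0.77, and over the animals left out in turn it ranged from 0.75 to 0.89. For miR-412, r was 0.80 (exact p = 0.00853, adjusted p = 0.234), rho was 0.95 (exact p = 0.00109) and r was 0.81 without its 2 farthest animals. By processed signal r was 0.74 for miR-410 (exact p = 0.0344) and 0.67 for miR-412 (exact p = 0.0709). All 8 miRs of Mirg had a positive r, from 0.05 for miR-541 to 0.86, with a median of 0.60, and the median r between these miRs themselves was 0.49. Without MS5 9 and MS5 12, r was 0.90 for miR-410 and 0.86 for miR-412. With the mRNA arrays of those animals exchanged it was 0.86 and 0.80. Mirg read 13.02 and 13.01 in MS5 9 and 12, so the exchange could hardly move r and tests nothing here.

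The opposite run was that of Clcn5, which encodes a chloride and proton exchanger of endosomes. All 6 of its miRs had a negative r, with a median of -0.82. The host read 9.98 in MS2 4 and 8.78 to 9.02 in the other 7 animals, and miR-532-3p read 7.50 in MS2 4 and 8.16 to 8.76 elsewhere. For miR-532-3p, r was -0.93 (exact permutation p = 0.00982, adjusted p = 0.234) and rho was -0.83 (exact p = 0.0154). It was -0.60 without MS2 4 and -0.10 without the 2 animals farthest from its median. Over the 6 pairs the median r without MS2 4 was -0.06, with 2 of 6 positive. The Clcn5 run therefore rested on 1 animal, which the Mirg run did not to the same extent (median 0.49 without MS2 4, with 6 of 8 positive).

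MS2 4 also carried much of 3 further pairs. For miR-139-5p and Pde2a, a phosphodiesterase of cyclic nucleotides, the animals in the order above read 9.50, 9.41, 9.26, 9.44, 9.02, 9.79, 9.93 and 9.89 for the miR and 15.00, 15.26, 15.33, 15.15, 14.10, 15.55, 15.40 and 15.54 for the host. MS2 4 was lowest for both and the 3 MS5 animals were highest for both. Here r was 0.78 (exact permutation p = 0.00883, adjusted p = 0.234), rho 0.67 (exact p = 0.0831), and r 0.63 without MS2 4 and 0.64 without the 2 farthest animals. For miR-383 and Sgcz, a sarcoglycan gene, MS2 4 was highest for both (11.05 and 8.25) and r was 0.81 (exact p = 0.0187, adjusted p = 0.252), with rho 0.81 (exact p = 0.0218). That r was 0.51 without MS2 4 and 0.53 without the 2 farthest animals. For miR-130b and 2610318N02Rik, r was 0.84 (exact p = 0.0089, adjusted p = 0.234), rho 0.67 (exact p = 0.0831), and r 0.61 without MS2 4 and 0.33 without the 2 farthest animals.

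**Figure D4:**
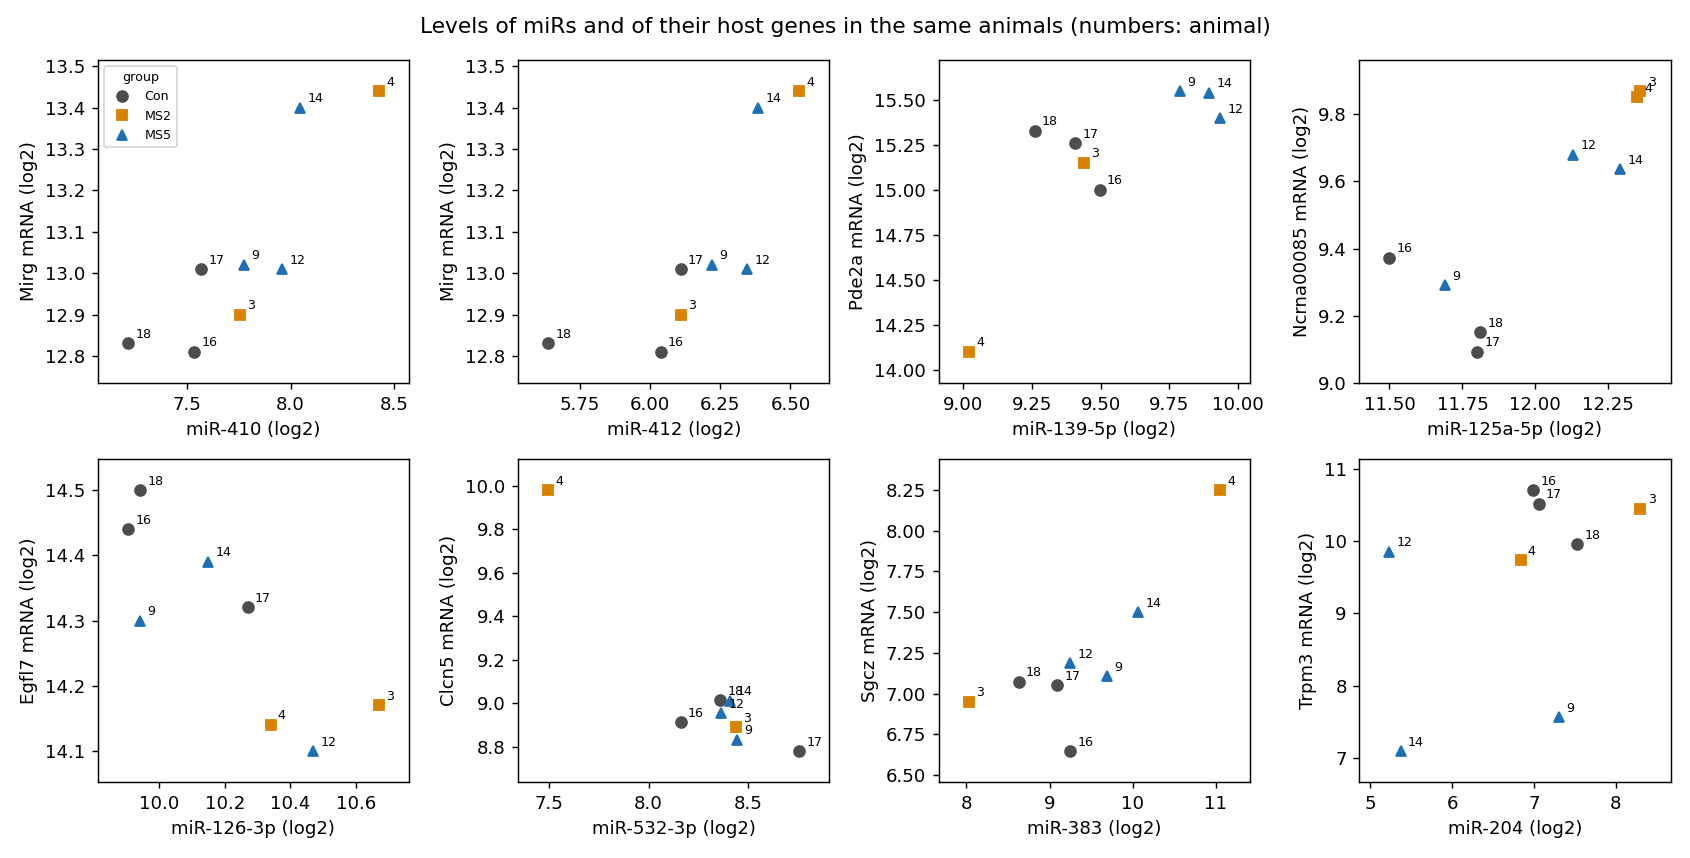
Level of each host gene (log2, vertical axes) against the level of its miR (log2, horizontal axes), 1 point per animal with its number; circles are Con, squares MS2 and triangles MS5. Mirg rose with miR-410 and miR-412 across animals, the Clcn5 panel is set by MS2 4, and in the Trpm3 panel MS5 9 and MS5 12 lie off opposite ends.

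The locus of miR-125a, miR-99b and let-7e gave pairs of both signs. Its host Spaca6, listed on the array as Ncrna00085, read 9.37, 9.09, 9.15, 9.87, 9.85, 9.29, 9.68 and 9.64 in the order above, and miR-125a-5p read 11.50, 11.80, 11.81, 12.36, 12.35, 11.69, 12.13 and 12.29. Both were highest in the MS2 animals and in MS5 12 and 14. The r was 0.83 (exact permutation p = 0.0226, adjusted p = 0.252), rho 0.76 (exact p = 0.0368), and r 0.91 without the 2 farthest animals and 0.59 with the exchange. For miR-99b-star from the same host, r was -0.78 (exact p = 0.0275, adjusted p = 0.252), rho -0.76 (exact p = 0.0368) and r -0.80 without the 2 farthest animals and -0.53 with the exchange. One host thus had a miR that rose with it and a miR that fell as it rose.

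For miR-126-3p, the miR of endothelial cells, the relation with its host Egfl7 was negative. The miR read 9.90, 10.27, 9.94, 10.67, 10.34, 9.94, 10.47 and 10.15 and Egfl7 read 14.44, 14.32, 14.50, 14.17, 14.14, 14.30, 14.10 and 14.39. The r was -0.81 (exact permutation p = 0.0173, adjusted p = 0.252), rho -0.74 (exact p = 0.0458), and r -0.81 without the 2 farthest animals and -0.91 with slide means removed. It was -0.88 without MS5 9 and MS5 12 and -0.44 with their mRNA arrays exchanged. The other 5 endothelial markers gave r from -0.36 (Tek) to 0.49 (Slco1a4), and the mean of the endothelial list moved only between 11.19 and 11.42 over the 8 animals. This host was taken from a textbook list, as were 14 of the 119 pairs.

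The remaining pairs under an unadjusted p of 0.05 came from 5 hosts. Both arms of miR-9, which 3 loci can produce, followed Mir9-3hg (AI854517 on the array). For miR-9-star r was 0.82 (exact permutation p = 0.022, adjusted p = 0.252), rho was 0.71 (exact p = 0.0576) and r was 0.21 without the 2 farthest animals, and for miR-9 r was 0.72 (exact p = 0.0438, adjusted p = 0.348), rho was 0.40 (exact p = 0.327) and r was 0.04 without its 2 farthest. With the MS5 9 and 12 mRNA arrays exchanged both were near 0 (-0.0045 and 0.03). For miR-125b-star and Mir100hg (2610203C20Rik) r was -0.67 (exact p = 0.0185, adjusted p = 0.252), rho -0.90 (exact p = 0.00456), and r -0.66 without the 2 farthest animals. The probe sets miR-125b-3p and miR-125b-5p, assigned to the same hairpin, had r 0.13 and 0.09. All were assigned by base name, so whether miR-125b-star comes from this locus was not tested. For miR-676 and Eda, a ligand of the tumour necrosis factor family, r was 0.72 (exact p = 0.0413, adjusted p = 0.348), rho 0.74 (exact p = 0.0458), and r 0.73 without the 2 farthest. It was 0.50 without MS5 9 and MS5 12 and 0.35 within groups. For miR-339-5p and 3110082I17Rik r was 0.77 (exact p = 0.0243, adjusted p = 0.252), rho 0.52 (exact p = 0.197), and r 0.13 without the 2 farthest. The third Mirg pair, miR-369-5p, had r 0.77 (exact p = 0.0262, adjusted p = 0.252), rho 0.69 (exact p = 0.0694), and r 0.63 without the 2 farthest. By processed signal its r was 0.61 (exact p = 0.117).

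Among the miRs that the study followed, 3 ran with their hosts without passing the threshold. For miR-153 and Ptprn2, a dense-core vesicle protein, r was 0.70 (exact permutation p = 0.0548, adjusted p = 0.349) and rho 0.76 (exact p = 0.0368), and r was 0.85 without the 2 farthest animals. It was 0.21 within groups and 0.52 without Con 18. For miR-574-3p and Fam114a1 r was 0.68 (exact p = 0.0647, adjusted p = 0.349), rho 0.62 (exact p = 0.115), and r 0.61 without the 2 farthest. The miR read 8.51, 8.24 and 8.42 in Con 16, 17 and 18 and 7.43 to 8.02 in the 5 treated animals. Within groups its r was 0.08, so the relation over 8 animals lay mostly between Con and the rest. For miR-455 and Col27a1, a fibrillar collagen, r was 0.67 (exact p = 0.0722, adjusted p = 0.349), rho 0.52 (exact p = 0.197), and r 0.31 without the 2 farthest animals. It was 0.07 within groups and 0.78 (exact p = 0.0278) with slide means removed.

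The host pairs of miR-204, miR-34b-3p and miR-34c-star moved with the numbers of MS5 9 and 12, as did those of miR-9, miR-9-star and miR-126-3p above. The pair of miR-138-star and Nup93, a nuclear pore protein, did so as well. Its r was 0.41 (exact permutation p = 0.312) as labelled and 0.91 with the exchange. For miR-204 and Trpm3, r was 0.41 (exact permutation p = 0.305, adjusted p = 0.658), rho 0.36 (exact p = 0.389), and r 0.08 without the 2 farthest animals. It was 0.83 without MS5 9 and MS5 12 and 0.88 with their mRNA arrays exchanged. Since the exchange was chosen from such levels, no p-value is given with it. The levels of miR-448 and miR-34c fell into 2 clusters, MS5 12 and 14 below and the other 6 animals above, so their pairs were tested within the upper 6. There miR-448 and Htr2c had r -0.72 (exact p = 0.122) and rho -0.77 (exact p = 0.103). With slide means removed r was -0.76 (exact p = 0.0278, the smallest that pairings within slides allow for these 6 animals). With the exchange it was -0.95. Htr2c read 12.04 to 12.95 over the 8 animals, a range of under 1 log2 unit, where miR-448 spanned 2.90. For miR-34c and its host Hoatz (4833427G06Rik), r within the upper 6 was -0.06 (exact p = 0.91). Hoatz read 9.24, 9.15, 8.62, 9.23, 8.08, 7.55, 9.12 and 7.29, and miR-34b-3p read 7.47, 7.01, 7.51, 7.96, 6.75, 7.61, 6.12 and 5.99. For this pair r was 0.33 (exact p = 0.424), rho 0.38 (exact p = 0.36), and r 0.20 without the 2 farthest animals. It was 0.87 without MS5 9 and MS5 12 and 0.91 with the exchange. Without those 2 animals MS5 14 was the only low animal on both assays.

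Marker genes of cell types gave the same split. Over 117 pairs of a cell-type miR and a marker of that cell type, 8 had an unadjusted exact p under 0.05 (6.84%), against 6.18% over all 27439 genes well above background for the same 15 miRs. For miR-204, 15 of 16 choroid plexus markers had a positive r, with a median of 0.41 beside 0.01 over all genes, and 0 of 16 passed an unadjusted exact permutation p of 0.05. The median was 0.06 without the 2 farthest animals, 0.81 without MS5 9 and MS5 12 and 0.85 with the exchange, when 14 of 16 passed. The exception was Prlr, the prolactin receptor, with r -0.37. Over the 6 ciliated-cell markers the median r with miR-34b-3p was 0.07, and 0.74 with the exchange. The number of marker pairs that passed was 46 with the exchange and 4 without the 2 animals. The share over all genes was computed only for all 8 animals as labelled, so these counts have no such share beside them. Since the exchange was chosen from the levels of such miRs and markers, its counts are no test of them.

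With the numbers as labelled, 4 of the 8 pairs that passed were those of miR-143 with mesenchymal markers. miR-143, known from smooth muscle and mesenchyme, had r 0.73 with Col1a1, 0.72 with Col1a2, 0.75 with Col3a1 and 0.75 with Igf2. The exact permutation p-values of these pairs ran from 0.0236 to 0.0386. With the rest of the list r was -0.12 for Dcn, 0.02 for Foxc1, 0.235 for Lum and 0.38 for Pdgfra. The median over the 8 mesenchymal markers was 0.55 beside -0.05 over all genes, of which 3.42% passed. Without the 2 farthest animals the median was 0.23 and 1 of the 8 markers passed. miR-214 had a median r of 0.42 with the same markers and none passed. Its host Dnm3os was well above background on 7 of the 8 mRNA arrays and was therefore not tested. The other 4 pairs that passed were 1 each of miR-128, miR-124-star, miR-146a and miR-126-3p, the last being that with Egfl7. Over all genes 4.53%, 4.29%, 13.6% and 5.41% passed for these miRs, in that order. miR-128, a miR of neurons, had a positive r with 6 of 7 neuronal markers, with a median of 0.27. Its r with Snap25, a protein of synaptic vesicle fusion, was 0.93 (exact permutation p = 0.00117), and it was 0.84 without the 2 farthest animals and 0.33 with the exchange. For miR-124-star and Prox1, a transcription factor of dentate granule neurons, r was -0.93 (exact p = 0.00193), -0.86 without the 2 farthest animals and -0.88 with the exchange. The median r with the neuronal list was -0.53 for miR-124 and -0.38 for miR-124-star. For miR-146a the median with 6 microglial markers was -0.46, and 0.42 without the 2 farthest animals, so its sign turned. Its r with Ptprc, the leukocyte antigen CD45, was -0.82 (exact p = 0.00955). The median was -0.47 for miR-486 with 4 blood markers and -0.28 for miR-126-3p with the endothelial list. The oligodendrocyte list, which had no miR tested, moved between 10.32 in Con 18 and 12.70 in MS2 4, and the astrocyte list between 12.92 and 13.19. The levels of miR-219, miR-338-3p and miR-451 had means under 6 and were not tested.

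No mRNA probeset passed the test against any of 6 miRs taken from those that the study followed. With limma and Benjamini-Hochberg adjustment over 55681 probesets, each of them had 0 (0%) at an adjusted p under 0.05. At an unadjusted p under 0.05 miR-204 had 2155 probesets (3.87%), miR-448 had 2035 (3.65%), miR-34c had 2344 (4.21%), miR-214 had 1968 (3.53%), miR-455 had 1741 (3.13%) and miR-574-3p had 2623 (4.71%). Leaving out MS2 4 gave 75 probesets for miR-448, 71 of them lower where the miR was higher, and 58 for miR-34c. Leaving out any other animal gave 0 for all 6 miRs. The levels of miR-448 and miR-34c formed a lower and an upper cluster, as given above. Their counts without MS2 4 therefore largely set the lower cluster against the other animals. Without the 2 farthest animals, which were that lower cluster, limma gave 0 probesets at an adjusted p under 0.05 for both miRs. Whether probesets followed either miR within the upper cluster without MS2 4 was not tested.

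By the measure of Pearson r over the 8 animals, the named genes most opposite to miR-204 were Zbtb42, Utp6, Penk, Ctss and A630001G21Rik, with r from -0.96 to -0.93, and the most alike were Spink10, Smok2b, Adnp, Acat1 and Glt25d2, with r from 0.92 to 0.94. All had a limma adjusted p of 1. With the exchange the r of the 5 opposite genes ran from -0.64 to -0.19 (Penk -0.37) and that of the 5 alike from 0.26 to 0.61. Penk was the only one of the 10 that ranged over more than 1 log2 unit (3.01), and the others spanned 0.14 to 0.56. Since the levels of miR-448 formed 2 clusters, its order of genes over 8 animals pools both clusters. The most opposite were Penk, Serpina9, Rarb, Ccl8 and Ctss, of which Penk, Rarb and Ccl8 had a limma adjusted p of 0.0583. Over the 8 animals the r of these 5 ran from -0.98 to -0.97. Without MS5 12 and 14, the lower cluster, it ran from -0.71 (Ctss) to -0.38 (Rarb). With the exchange it ran from -0.38 (Penk) to -0.19 (Serpina9). Rarb, a retinoic acid receptor, read 11.66 and 11.57 in MS5 12 and 14 and 10.07 to 10.39 in the rest, and Ccl8, a chemokine, read 8.27 and 8.64 against 6.29 to 6.86. The most alike to miR-448 were Lrrc17, Fat2, Smok2b, Glt25d2 and Tuba4a. Their r ran from -0.06 (Tuba4a) to 0.87 (Glt25d2) without MS5 12 and 14, and from 0.09 (Fat2) to 0.59 (Smok2b) with the exchange. In the 7 animals without a miR array Penk was also high in Con 19 (14.85), MS2 5 (15.15) and MS5 8 (15.58), and Rarb in the same 3 (12.44, 12.33 and 12.91), where the choroid plexus marker mean was 11.99, 11.69 and 11.72.

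For 10 pairs of a miR and a predicted target that the study had chosen on these samples, 1 had an unadjusted exact p under 0.05. Among all genes well above background the share was 3.8% for miR-204, 3.55% for miR-448 over its 6 animals and 3.28% for miR-455. The predictions for miR-448 and miR-455 were made for their 5p arms. The array names give no arm, and the miR-448 sequence shown above is the 3p arm, so whether the probe sets read the arm of the predictions was not tested. Syt6, a synaptotagmin, read 10.52, 10.65, 10.40, 10.63, 11.50, 10.58, 11.96 and 11.63 in the order above and was highest in MS5 12, MS5 14 and MS2 4, which were the 3 lowest animals for miR-204. Here r was -0.85 (exact permutation p = 0.00419, limma adjusted p = 1), rho -0.76 (exact p = 0.0368), and r -0.43 without the 2 farthest animals. Within groups it was -0.98 (exact p = 0.0278) and with the exchange -0.21. In the animals without a miR array Syt6 ranged from 10.46 to 12.55 and was highest in the same 3 animals as Penk. For miR-204 and Ap1s2, an adaptor protein subunit, r was -0.47 (exact p = 0.236) and rho -0.79 (exact p = 0.0279), and r was -0.56 without the 2 farthest.

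The other target pairs gave smaller values. miR-455 had r -0.31 with Ap1s2 (exact permutation p = 0.458), -0.26 with Pdzd2 (exact p = 0.578) and -0.37 with Prg4 (exact p = 0.369). Their rho values were -0.17 (exact p = 0.703), -0.55 (exact p = 0.171) and -0.57 (exact p = 0.151), and r without the 2 farthest animals was 0.55, -0.06 and -0.16. Pdzd2 read 11.42 in MS2 4 and 9.31 to 10.10 elsewhere, and without MS2 4 its r was -0.93 (exact p = 0.00813). Prg4 was well above background on 7 of the 8 arrays. For miR-448 within the 6 animals of the upper cluster, r was -0.10 with Acox2, -0.12 with Kl, -0.35 with Otx2, -0.11 with Prdm16 and 0.03 with Sema3a, with exact permutation p-values from 0.533 to 0.944. Acox2, Kl and Otx2 were lowest in MS5 9 and 14 and so followed the choroid plexus markers, and Kl and Otx2 belong to that list.

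The leading component of the mRNA arrays set MS2 4 apart, and that of the miR arrays had MS2 4 and MS2 3 at opposite ends. The first principal component held 46.7% of the variance of the 39371 mRNA probesets well above background and 36.0% of that of the 255 mature miRs with a mean of at least 6. Turned so that MS2 4 was positive, MS2 4 scored 71.2 on the mRNA component and the other animals -18.5 to 6.21, MS5 14 being next. On the miR component MS2 4 scored 5.39, MS5 14 2.80 and MS2 3 -5.29. The scores of both assays had r 0.79 (exact permutation p = 0.00466) and rho 0.69 (exact p = 0.0694). With MS2 4 left out of these scores r was 0.69 (exact p = 0.105) and rho 0.54 (exact p = 0.236). With both components refitted without MS2 4, r was 0.06 (exact p = 0.89), and refitted without the 2 animals farthest on the miR component it was 0.33, so the call at p 0.05 was lost without MS2 4. It was also lost in refits without Con 17 (r 0.73, exact p = 0.0913), Con 18 (r 0.69, exact p = 0.135) or MS5 14 (r 0.64, exact p = 0.224), and with features at unit variance (r 0.20, exact p = 0.574). The genes with the largest loadings were Tcfap2b, Gata3, Tcf7l2 (by the probeset outside the marker list), Slc6a3 and Fign, all highest in MS2 4. The miRs were miR-383, miR-344 and, with the opposite sign, miR-204 and miR-449a. Exchanging the MS5 9 and 12 mRNA arrays left r at 0.79. Their mRNA scores were close (-7.72 and -5.6) beside 71.2 in MS2 4, so the exchange could hardly move this r.

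**Figure D5:**
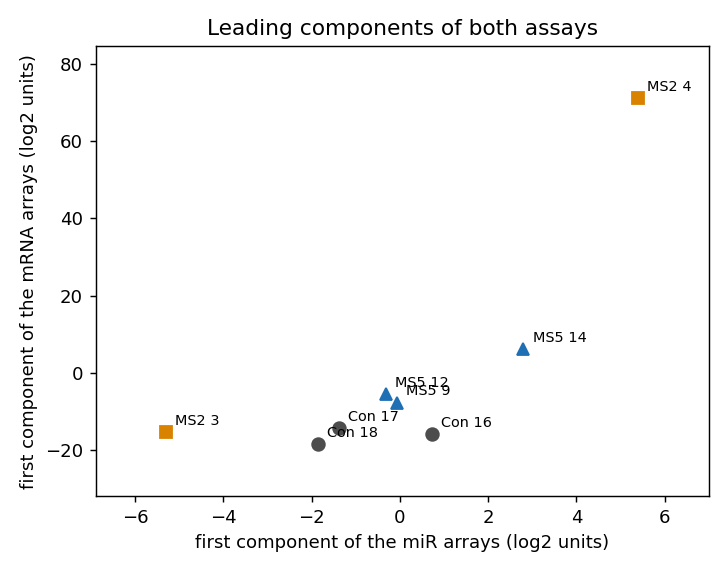
Score of each animal on the first component of the mRNA arrays (vertical axis) against that of the miR arrays (horizontal axis), both in log2 units; circles are Con, squares MS2 and triangles MS5. MS2 4 lies alone at 71.2 and 5.39, and the other 7 points had r 0.69 among themselves.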

How the data were processed

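Samples were grouped by the GEO labels, and animals were joined across assays by the number in the titles. For the mRNA arrays (Agilent, 1 colour) the authors deposited log2 values after normexp background adjustment and quantile normalization between arrays. For the miR arrays (Affymetrix) the deposited log2 values had been background corrected, quantile normalized and summarized by median polish, and the labels name RMA. Deposited scanner intensity values supplied the background flags and 2 alternatives, processed signal at the 75th percentile and normexp (offset 50) recomputed, which differed from the table by over 0.01 at 432 of 55681 probesets. The number of arrays limits precision.

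Host pairs came from RefSeq positions (GRCm38.p6, same strand) or a textbook list (14 pairs), and 156 of 717 mature miR probe sets were not in the table. Probe sets were matched to miR genes by base name, without regard to arm or star. The host probeset was the one of highest mean. Correlations were tested over all 40320 pairings of 8 animals, or over all pairings of the animals kept where some were left out. With group or slide means removed, only pairings within groups or within slides were used. Correlations were run in Python 3.11.15 (numpy 2.4.6, pandas 2.3.3), and probesets were tested with limma 3.58.1 in R 4.3.3. Both were tested on simulated data. Clusters were taken where the largest gap exceeded 0.5 of the range. Named genes were the host pairs of miR-204, miR-448, miR-34c, miR-214, miR-455, miR-574-3p, miR-126, miR-338 and miR-153, the target pairs, the markers, and the 5 most alike and 5 most opposite genes of miR-204 and miR-448. The animals and lists were chosen with earlier results of these data known. Marker lists covered choroid plexus, ciliated, mesenchymal, blood, endothelial, microglial, oligodendrocyte, neuronal, astrocyte and hypothalamic genes.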

Additional observations from a re-analysis of the deposited data

How the results depend on the processing

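The number of host pairs with an adjusted p under 0.05 was 0 under every alternative run. The number at an unadjusted p under 0.05 (15) was 7 without the 2 animals farthest on the first miR component, 5 within groups and 9 without MS5 9 and MS5 12, and 10 to 20 when each animal was left out. No paired analysis was possible because the groups share no animal numbers.

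The count of probesets following a miR (0 for each of 6) became 2 for miR-204 with group as a term, and 7 for miR-448 and 2 for miR-34c among probesets well above background only. Leaving out each animal gave 0 to 75 for miR-448 and 0 to 58 for miR-34c. Without the 2 farthest animals, the lower cluster of both miRs, both counts were 0. The r between leading components (0.79) was 0.954 with group means removed (exact permutation p = 0.125), 0.199 with features at unit variance, 0.334 refitted without the 2 farthest animals and 0.058 to 0.834 when each animal was left out. Target pairs under p 0.05 numbered 2 by Spearman and 0 with the exchanged arrays, and marker pairs 46 with the exchange and 4 without MS5 9 and MS5 12. For these 2 marker counts no share over all genes was computed. The exchange, the omission of MS5 9 and MS5 12, the components without the 2 farthest animals, and the use of all 8 animals for miRs in 2 clusters were chosen after seeing the data.

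Direction changed as follows. Within groups, r was -0.253 for miR-204 and Trpm3, 0.0932 for miR-34c and -0.235 for miR-34c-star with 4833427G06Rik, -0.137 for miR-448 and Sema3a, and 0.0921 and 0.435 for miR-455 with Ap1s2 and Pdzd2. Over all 8 animals, where 2 clusters of miR levels are pooled, r was 0.204 for miR-34c and 4833427G06Rik and, for miR-448, 0.228 with Htr2c, 0.251 with Acox2, 0.366 with Kl, 0.311 with Otx2, 0.0767 with Prdm16 and -0.662 with Sema3a. For miR-34c and 4833427G06Rik, rho was 0.20, and r was 0.0023 with slide means removed and 0.303 with the exchange. With the exchange r was -0.0045 for miR-9-star and AI854517. With slide means removed r was 0.0381 for miR-204 and Ap1s2, and by processed signal it was -0.0805 for miR-448 and Sema3a. Without the 2 farthest animals r was 0.551 for miR-455 and Ap1s2. When each animal was left out, r ran from -0.109 to 0.547 for miR-34c-star and 4833427G06Rik, from -0.0838 to 0.593 for miR-34b-3p and 4833427G06Rik and from -0.507 to 0.151 for miR-455 and Ap1s2. Of 432 values of single pairs under alternatives, 296 kept both direction and side of p 0.05, 95 lost the call, 18 gained it and 23 changed direction. The cause of these changes was not tested. For pairs within the 6 animals of a cluster, no animal was left out, since fewer than 6 would remain.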
